A study of Mus musculus with 15 samples.

Results

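The genes described here are the numbered Zfp zinc finger genes that were expressed in NIH3T3, a permanent mouse cell line grown out from embryo fibroblasts. They are the gene symbols made of Zfp and a number alone, without Zfp36, which averaged at least 2 CPM (read counts scaled to the library total) over the untreated RNA libraries. Of 318 such symbols among the 19069 genes in the count files, 288 reached this floor, and all 288 had enough counts to test. The floor used the untreated RNA levels, so the members were chosen by their untreated level. The study compared cells exposed to UV-C light of 254 nm at 80 J/m2, and then kept for 6 h, with untreated cells. Before exposure the irradiated cells were rinsed in DPBS, a buffered saline, and afterwards they were given new medium with DMSO. For the untreated cells the labels record neither step, so exposure and handling cannot be told apart. RNA was sequenced in 3 UV and 3 untreated libraries. Open chromatin (FAIRE-seq, which recovers DNA that is poorly crosslinked to protein) and acetylated histone H3 lysine 27 (H3K27ac ChIP-seq, a mark of active promoters and enhancers) were measured in 2 UV and 2 untreated samples each, beside 1 input DNA.

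Most of these genes encode proteins with a row of zinc fingers of the Cys-Cys-His-His type, each of which can contact a few bases of DNA. Many carry a KRAB domain, which recruits the corepressor Trim28 (KAP1), and through it the methyltransferase Setdb1 and heterochromatin proteins, to silence the DNA that the fingers bind, often retrotransposons. KRAB zinc finger genes multiplied by tandem duplication and lie in clusters in the mouse genome. A smaller number of genes with the same symbol prefix encode sequence-specific activators or proteins that act on RNA, ubiquitin or the spindle.

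After UV the RNA of 146 of the 288 Zfp genes was lower and that of 3 was higher. The members at the ends of the RNA range are shown first by the DNA in front of their start sites. RefSeq's table of GRCm38.p6 held a promoter for 238 of the 288 members. This build differs from mm9, on which the deposited tables rest, and the windows below were not matched to the deposited promoters. The first 4 sequences belong to the lowest called members that had an entry, averaged 5 CPM or more and had no overlap between the groups, and the last 2 to members that were higher. Each is the 150 bases before the RefSeq start, 5′ to 3′ on the gene's strand. Zfp607 is listed there as Zfp607a. Capitals mark exact matches, on either strand, to CCAAT (the CCAAT box), GGGCGG (the GC box), TGACG (part of the CRE) or CCGGAAG (an ETS site), and adjoining matches may overlap.
Zfp472, chr17:32965681-32965830, plus strand: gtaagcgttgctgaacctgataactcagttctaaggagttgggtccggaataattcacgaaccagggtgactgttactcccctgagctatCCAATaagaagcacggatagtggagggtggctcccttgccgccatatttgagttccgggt
Zfp637, chr6:117841031-117841180, plus strand: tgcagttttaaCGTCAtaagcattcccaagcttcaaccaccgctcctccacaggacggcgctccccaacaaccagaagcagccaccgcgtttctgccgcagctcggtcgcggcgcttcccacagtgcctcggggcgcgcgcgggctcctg
Zfp386, chr12:116047574-116047723, plus strand: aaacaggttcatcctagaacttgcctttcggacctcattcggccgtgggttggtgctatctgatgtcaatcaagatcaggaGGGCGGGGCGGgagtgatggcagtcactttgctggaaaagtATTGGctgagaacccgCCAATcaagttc
Zfp282, chr6:47877405-47877554, plus strand: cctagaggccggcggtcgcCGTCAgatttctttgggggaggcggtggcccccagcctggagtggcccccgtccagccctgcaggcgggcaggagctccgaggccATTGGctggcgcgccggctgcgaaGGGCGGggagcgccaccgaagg
Zfp607, chr7:27860435-27860584, plus strand: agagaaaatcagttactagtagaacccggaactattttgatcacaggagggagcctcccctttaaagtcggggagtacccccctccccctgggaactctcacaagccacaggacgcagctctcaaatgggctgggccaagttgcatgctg
Zfp688, chr7:127422035-127422184, minus strand: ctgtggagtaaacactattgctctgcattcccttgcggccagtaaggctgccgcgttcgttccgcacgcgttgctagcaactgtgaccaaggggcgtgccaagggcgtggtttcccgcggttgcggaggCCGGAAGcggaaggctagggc

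Zfp472 has 1 CCAAT match, Zfp386 has 2 with 2 GC boxes that overlap, Zfp282 has a CCAAT match, a GC box and the TGACG letters, and Zfp637 has the TGACG letters alone. Zfp607 has none of the letters searched in this window, and Zfp688 has 1 ETS match. Over the whole 300-base RefSeq promoters (250 bases before the start and 50 after), CCAAT was present in 111 of 238 members (46.6%), against 39.5% of 8443 genes of the files at the same floor and 37.9% of all 27025 promoters. The GC box was present in 45.4% of members, against 65.5% at the same floor and 35.9% of all promoters. TGACG was present in 31.5%, 32.2% and 21.0% of the same sets, and the ETS letters in 21.8%, 18.3% and 9.12%. The AP-1 letters TGANTCA were present in 4.20% of members, against 4.73% at the same floor and 7.93% of all promoters. Among members whose RNA was lower after UV, CCAAT was present in 63 of 122 (51.6%), and among members not called in 47 of 114 (41.2%). The median GC content was 54.7% in members, against 61.0% at the same floor and 52.7% over all promoters. These are matches of letters and say nothing of binding.

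The RNA libraries held 14211528 to 22032701 counts. UV replicate 1 stood apart: its scaling factor was 0.803, against 0.932 to 1.19 in the other libraries, and it had counts for 17607 genes, against 18350 to 18787. In a chi-square comparison of counts between libraries, given per degree of freedom, it lay 52.1 and 50.4 from the other UV libraries, which lay 5.06 apart, and untreated replicate 1 lay 41.0 and 35.4 from the other untreated libraries, which lay 15.2 apart. UV replicate 1 also had 5582 CPM of Lars2 by library totals, against 1257 and 1617 CPM in the other UV libraries and 520 to 943 CPM in the untreated ones. Each of the 8 fibroblast markers was present at 88.5 CPM or more in every library, and they summed to 20975 to 37581 CPM in UV libraries and 15963 to 21730.1 CPM in untreated libraries. Of these, Fn1 and Thy1 were higher after UV (log2 fold changes 1.58 and 0.99), none was lower, and the list's median was 0.56. The 10 markers of epithelial, endothelial and leukocyte cells summed to 15.1 to 24.0 CPM in UV libraries and 10.9 to 17.99 CPM in untreated libraries, and the leukocyte marker Cd68 alone of these was higher after UV (log2 fold change 1.39). The part of Lars2 and of these markers in the results was not tested. The labels do not name separate cultures, so the spread behind a p-value is that between these libraries and may be technical. In bulk RNA, fewer cells that express a gene and less RNA per cell cannot be told apart.

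In total the 288 members held a smaller part of the RNA after UV. They took 0.664%, 0.880% and 0.795% of all counts in the UV libraries, against 1.07%, 1.01% and 1.28% in the untreated libraries, and the groups did not overlap. These shares rest on library totals. With TMM scaling, which corrects totals for composition, the difference was smaller. The members then summed to 8269, 8421 and 8540 CPM after UV, against 10087, 9989 and 10832 CPM untreated. By edgeR's quasi-likelihood test with Benjamini-Hochberg adjustment over all 14925 genes tested, at a threshold of 0.05, 146 members (50.7%) were lower after UV and 3 (1.04%) were higher. Of all genes tested 12.4% were lower and 7.7% higher, and of the 11197 tested genes at the same untreated floor 16.6% were lower and 10% higher. The median log2 fold change (UV over untreated) of members was −0.60, with the middle 50% between −0.99 and −0.20 and a range of −2.49 to 1.12, against a median of −0.01 over all genes tested. It was below 0 in 243 members (84.4%). Among the calls, 70 members were lower by at least 2-fold, against 5.37% of all genes tested and 7.15% at the same floor.

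The UV and untreated libraries did not overlap in 182 members with UV lower (63.2%) and in 9 with UV higher (3.13%), against 17.3% and 16.6% of all genes tested and 22.8% and 20.4% at the same floor. Of the 146 members called lower, Zfp367 alone had overlapping groups. Without UV replicate 1, 166 members were lower and 3 higher, against 18.3% of all genes lower in that fit. The lower count fell to 91 without UV replicate 3 and to 95 without untreated replicate 2. The share of all genes called lower fell as well, to 7.31% and 7.49%. Library totals in place of scaled totals moved the median of all genes to −0.24 and that of members to −0.85, and 195 members were lower, against 25.1% of all genes. All 146 log2 fold changes were below 0 in every one of the 12 alternatives run, and 83 of the calls were kept in every one.

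**Figure D1:**
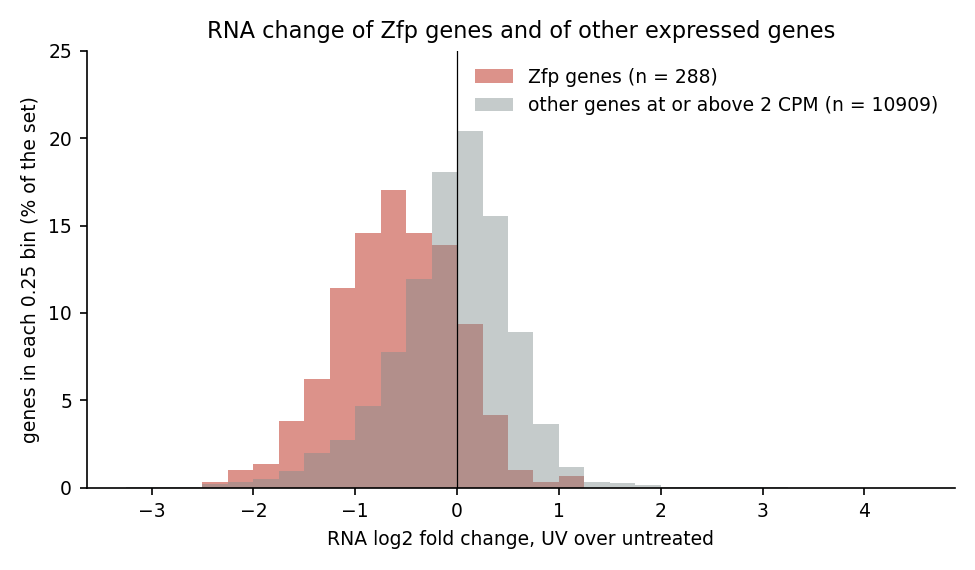
Distribution of the RNA log2 fold change (UV over untreated, x axis) as the percent of each set per bin of 0.25 (y axis), for the 288 Zfp genes and for the other tested genes with at least 2 CPM in untreated cells. The Zfp genes centre at −0.60 and the other genes near 0.

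Lower calls were found at every level of expression. Of 25 members at 2 to 5 CPM in untreated cells 9 were lower (36.0%, against 2.53% of all genes tested at that level), and of 46 at 5 to 10 CPM 23 were lower (against 14.3%). Of 65 at 10 to 20 CPM 36 were lower (against 23.2%), and of 106 at 20 to 50 CPM 61 were lower (against 23.7%). Above 50 CPM 17 of 46 were lower (37.0%, against 15.0%), with a median log2 fold change of −0.33. The 139 members not called had a median of −0.20, and 97 of them were below 0. Just above the floor, Zfp786, Zfp583 and Zfp493 averaged 2.12, 2.17 and 2.26 CPM of library totals in untreated cells, and just below it, Zfp456, Zfp791 and Zfp541 averaged 1.87, 1.88 and 1.89 CPM. Of the 30 symbols below the floor, 28 were tested and none was called by edgeR or DESeq2, with 1 lower and 0 higher at an unadjusted p below 0.05 in edgeR. By edgeR 1854 of all genes tested were lower, and all 1854 were at or above the floor. Of the 1149 higher genes 1121 were at or above it. The absence of lower calls below the floor is thus shared by all genes at that level and says nothing particular of these symbols.

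Among called members that averaged 5 CPM or more and had no overlap, the 10 lowest were Zfp472, Zfp637, Zfp87, Zfp41, Zfp386, Zfp282, Zfp90, Zfp52, Zfp551 and Zfp418. They span −2.49 to −1.54 in log2 fold change, and each call was kept without any one library. CPM values below are scaled by TMM, which corrects library totals for composition, and are not scaled by gene length.

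Zfp472, whose promoter heads the list above, had 3.03, 2.09 and 3.42 CPM in UV libraries 1 to 3, against 16.3, 16.4 and 15.4 CPM in untreated libraries 1 to 3. Every UV library was far below every untreated one, and the log2 fold change was −2.49 ± 0.22 (SE, edgeR adjusted p = 6.94e-07). Zfp637 had 11.3, 10.1 and 8.17 CPM after UV, against 40.1, 54.9 and 41.1 CPM untreated. The groups were again wide apart (log2 fold change −2.20 ± 0.20, edgeR adjusted p = 6.69e-07), and this member also had one of the lowest H3K27ac differences, given further on. Zfp87, a member of a large cluster on chromosome 13, had 2.85, 3.64 and 3.53 CPM after UV, against 13.2, 16.9 and 14.7 CPM untreated (log2 fold change −2.16 ± 0.21, edgeR adjusted p = 2.03e-06). Zfp41 had 4.70, 5.66 and 4.75 CPM after UV, against 19.3, 24.7 and 20.8 CPM untreated (log2 fold change −2.10 ± 0.19, edgeR adjusted p = 1e-06). In both genes the 3 UV libraries lay close together and below the untreated ones.

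Zfp386 had 10.4, 8.55 and 11.6 CPM after UV, against 34.4, 37.0 and 31.6 CPM untreated, a log2 fold change of −1.75. Zfp282, the counterpart of human ZNF282, a KRAB repressor, had 15.2, 12.3 and 12.5 CPM after UV, against 37.6, 43.1 and 41.7 CPM untreated (−1.61). Zfp90, a KRAB zinc finger gene, had 8.85, 8.49 and 10.3 CPM after UV, against 26.0, 29.5 and 28.1 CPM untreated (−1.60). All 3 were evenly low over the UV libraries. Zfp52 varied more among UV libraries, with 12.9, 5.46 and 6.20 CPM, against 28.7, 25.8 and 19.4 CPM untreated (−1.59). UV replicate 1 was the highest of the UV libraries in this gene and still below all untreated ones. Zfp551 and Zfp418, both from chromosome 7 clusters, were lower by 1.58 and 1.54 on the log2 scale, at 2.43 to 2.97 CPM after UV and 7.10 to 9.28 CPM untreated over both genes.

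**Figure D2:**
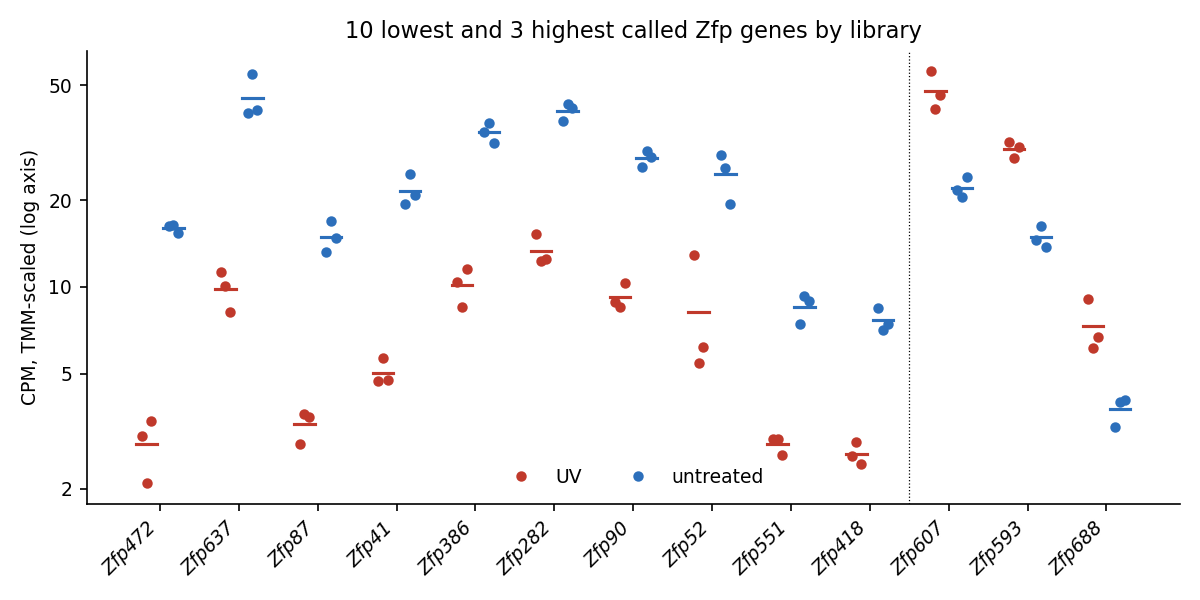
RNA level in CPM scaled by TMM (log y axis) of the 3 higher called Zfp genes and the 10 lowest called ones with a mean of at least 5 CPM and no overlap, with 1 point per library, UV left of untreated in each gene, and a bar at each mean. The 13 genes were picked to have no overlap between UV and untreated points, and Zfp607, Zfp593 and Zfp688 are the genes with UV above untreated.

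The members called higher were Zfp607, Zfp593 and Zfp688. Zfp607 had 55.9, 41.4 and 46.2 CPM after UV, against 21.6, 20.5 and 24.0 CPM untreated (log2 fold change 1.12 ± 0.18, edgeR adjusted p = 0.000215). Zfp593, whose human counterpart takes part in building the large ribosomal subunit, had 31.7, 28.0 and 30.6 CPM after UV, against 14.5, 16.3 and 13.7 CPM untreated (log2 fold change 1.02 ± 0.17, edgeR adjusted p = 0.000297). Zfp688 had 9.10, 6.13 and 6.72 CPM after UV, against 3.27, 4.004 and 4.06 CPM untreated (log2 fold change 0.95 ± 0.25, edgeR adjusted p = 0.0108). UV replicate 1 was the highest library for each of these genes, and their calls were kept without it. With a library left out the count of higher members ran to 5 without UV replicate 2 and to 6 without each untreated replicate.

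Of the 6 members with the most untreated CPM, Zfp871 alone was called. Zfp488, a regulator of oligodendrocyte development, had 601, 1569 and 1301 CPM after UV, against 1068, 684 and 1706 CPM untreated. Zfp277 ran in parallel, with 371, 1086 and 809.9 CPM after UV, against 776, 481 and 1067 CPM untreated. In both genes UV replicate 1 and untreated replicate 2 were the lowest of their groups, and the groups overlapped widely (log2 fold changes 0.01 ± 0.33 and −0.04 ± 0.32). Zfp106, an RNA-binding protein needed by motor neurons, had 417, 282 and 346 CPM after UV, against 263, 256 and 211 CPM untreated, and was not called (log2 fold change 0.52, edgeR adjusted p = 0.102), although it passed without UV replicate 2 (edgeR adjusted p = 0.0459), without untreated replicate 1 (0.0294) and without untreated replicate 2 (0.0423). Zfp644, a partner of the H3K9 methyltransferases G9a and GLP, had a log2 fold change of 0.29 (edgeR adjusted p = 0.391). Zfp871 had 126, 75.2 and 104 CPM after UV, against 178, 178 and 164 CPM untreated, and was lower by 0.77 on the log2 scale (edgeR adjusted p = 0.0143), a call lost without UV replicate 2 or 3 (adjusted p = 0.0631 or 0.0855).

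Of the 12 members known for work on RNA, ubiquitin or other tasks away from promoters, 1 was lower and 1 was higher (8.33% each). The other 10 were not called. Of all tested genes at the same floor 16.6% were lower and 10% higher. The median log2 fold change of the list was 0.10. It was −0.10 without UV replicate 1 (2 lower, against 18.3% of all genes) and −0.15 with library totals (3 lower, against 25.1%). The lower one was Zfp622, which like its yeast counterpart matures the large ribosomal subunit, at 31.4, 23.2 and 26.5 CPM after UV and 36.8, 48.3 and 40.2 CPM untreated (log2 fold change −0.63, edgeR adjusted p = 0.0201). That call was lost with DESeq2 (adjusted p = 0.0795) and without UV replicate 2, UV replicate 3 or untreated replicate 2 (adjusted p = 0.0748, 0.129 and 0.0844). The higher one was Zfp593. Without each of UV replicate 2 and untreated replicates 1 and 2, 2 genes of the list were higher. Zfp91, a ubiquitin ligase, had a log2 fold change of −0.33, and Zfp598, the ubiquitin ligase that marks collided ribosomes, one of 0.14. Zfp207 (BuGZ), a spindle protein, had −0.18, and Zfp451, a SUMO ligase, had 0.30. Zfp326, a splicing factor of the DBIRD complex, had 0.17, Zfp346, which binds double-stranded RNA, −0.08, and Zfp259 (now Zpr1) 0.29. Zfp318, which acts on immunoglobulin D transcripts in B cells, had 0.07 and Zfp830, a spliceosome component, less than 0.01 in size. None of these 9 genes passed the test, although Zfp91 did so, as lower, without UV replicate 1 (edgeR adjusted p = 0.0154), and Zfp91 and Zfp207 did so with library totals (0.0106 and 0.00888).

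Of the 23 genes listed as sequence-specific regulators 19 were members, with a median log2 fold change of −0.33. By edgeR 7 of these were lower (36.8%, against 16.6% of tested genes at the same floor), 0 were higher (against 10%) and 12 were not called. At an unadjusted p below 0.05 edgeR had 1 of them higher, and DESeq2 called 6 lower and 0 higher. With library totals 13 were lower at a median of −0.58, and without UV replicate 1 10 were lower. Of all genes tested 25.1% and 18.3% were lower in these fits. Zfp64, a promoter activator in human leukaemia, had 10.5, 7.61 and 8.46 CPM after UV, against 22.3, 23.4 and 22.7 CPM untreated (log2 fold change −1.36 ± 0.18, edgeR adjusted p = 4.36e-05). Zfp217, a partner of the CoREST corepressor, had 17.6, 14.8 and 16.7 CPM after UV, against 36.1, 40.5 and 38.8 CPM untreated (log2 fold change −1.23 ± 0.17, edgeR adjusted p = 5.34e-05). In both the groups were far apart. Zfp568, a KRAB repressor of a placental Igf2 transcript, had 21.7, 15.2 and 15.9 CPM after UV, against 42.0, 39.2 and 36.9 CPM untreated (log2 fold change −1.16, edgeR adjusted p = 0.000194). Zfp503, a regulator of striatal development, had 25.4, 28.4 and 26.2 CPM after UV, against 48.0, 68.3 and 57.5 CPM untreated (log2 fold change −1.12, edgeR adjusted p = 0.000261). Zfp143, a promoter-binding activator, fell by 0.83 and Zfp57, which keeps methylation at imprinted loci, by 0.77 on the log2 scale. Zfp521, an antagonist of Ebf1, fell by 0.60.

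The call of Zfp57 was lost without UV replicate 3 (edgeR adjusted p = 0.0598). That of Zfp521 was lost with DESeq2 (adjusted p = 0.0851) and without UV replicate 2 or 3 or untreated replicate 2 or 3 (adjusted p = 0.0604, 0.199, 0.166 and 0.110). The other regulators were not called. Zfp410, which activates the Chd4 gene, had a log2 fold change of −0.47 (edgeR adjusted p = 0.0708), and Zfp281, a regulator of pluripotent cells, had −0.45 (edgeR adjusted p = 0.145). Both passed without UV replicate 1 (edgeR adjusted p = 0.00522 and 0.0158). Zfp148 and Zfp652 had −0.33 each, the partners Zfp592 and Zfp687 −0.22 and −0.06, and Zfp809, which silences murine leukaemia proviruses, −0.14. Zfp652 also passed without UV replicate 1 (edgeR adjusted p = 0.0144). Zfp516 had −0.07, Zfp462 0.04, Zfp219 0.12, Zfp335 0.20 and Zfp703, a relative of Zfp503, 0.52 (edgeR adjusted p = 0.119), with no overlap between its groups.

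The members were also sorted by their neighbours. By RefSeq positions in GRCm38, 160 of the 288 members lay in 25 groups of 3 or more, in which each member was within 500 kb of the next, 24 lay in pairs and 104 had no other member that near. Of the 160 in groups, 99 were lower (61.9%), 2 were higher and 150 had a log2 fold change below 0, with a median of −0.75. Of those in pairs 11 were lower (median −0.57). Of those alone 36 were lower (34.6%) and 1 was higher, with a median of −0.32. Of tested genes at the same floor 16.6% were lower and 10% higher. Without UV replicate 3, 63 in groups and 23 alone were lower, and without untreated replicate 2, 64 and 25, while with library totals 125 and 55 were. Of all genes tested 7.31%, 7.49% and 25.1% were lower in these fits. All 12 members with roles in RNA or ubiquitin and 15 of the 19 regulators were alone. Of the 77 members that were alone and on neither role list, 29 were lower (37.7%) at a median of −0.35. The difference between members in groups and alone was not tested. Near-identical relatives within a cluster can share reads, so values of single cluster members are uncertain to that extent.

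Each of the 25 groups had a median below 0, from −1.19 to −0.33, and at least 1 lower call. The groups named here were picked after their values were seen. The largest had 20 members on chromosome 17, among them Zfp51, Zfp52, Zfp53 and Zfp54, with 13 lower and a median of −0.72, and all 20 were below 0. A second group on that chromosome held Zfp472 with Zfp871, Zfp799, Zfp870, Zfp952, Zfp763, Zfp563, Zfp81, Zfp101 and Zfp414, and 8 of these 10 were lower. Zfp952 and Zfp763 had log2 fold changes of −1.51 and −1.505, while Zfp101 and Zfp414, not called, had −0.48 and −0.20. The group of 16 on chromosome 13 that holds Zfp87 was more mixed, with 8 lower. There Zfp748 had a mean of 10.3 CPM after UV, against 24.5 CPM untreated, while Zfp458 had 6.30 against 5.81 CPM and Zfp459 6.58 against 5.98 CPM, neither called. The lowest group median belonged to 7 genes on chromosome 7, of which Zfp551, Zfp606, Zfp110, Zfp128 and Zfp324 were lower, the call of Zfp110 being lost without UV replicate 3 (edgeR adjusted p = 0.0878). Zfp329 in that group was level, at means of 40.4 CPM after UV and 41.5 CPM untreated.

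Zfp607 and its neighbours moved in opposite directions. Zfp59 had 10.3, 11.0 and 9.73 CPM after UV, against 22.2, 24.2 and 21.7 CPM untreated (log2 fold change −1.13, edgeR adjusted p = 0.000142). Zfp60 had 24.8, 20.4 and 22.8 CPM after UV, against 46.2, 49.8 and 43.8 CPM untreated (log2 fold change −1.04, edgeR adjusted p = 0.000281). Both were lower by about as much as Zfp607 was higher, in the same libraries, and all calls were kept without any one library.

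**Figure D3:**
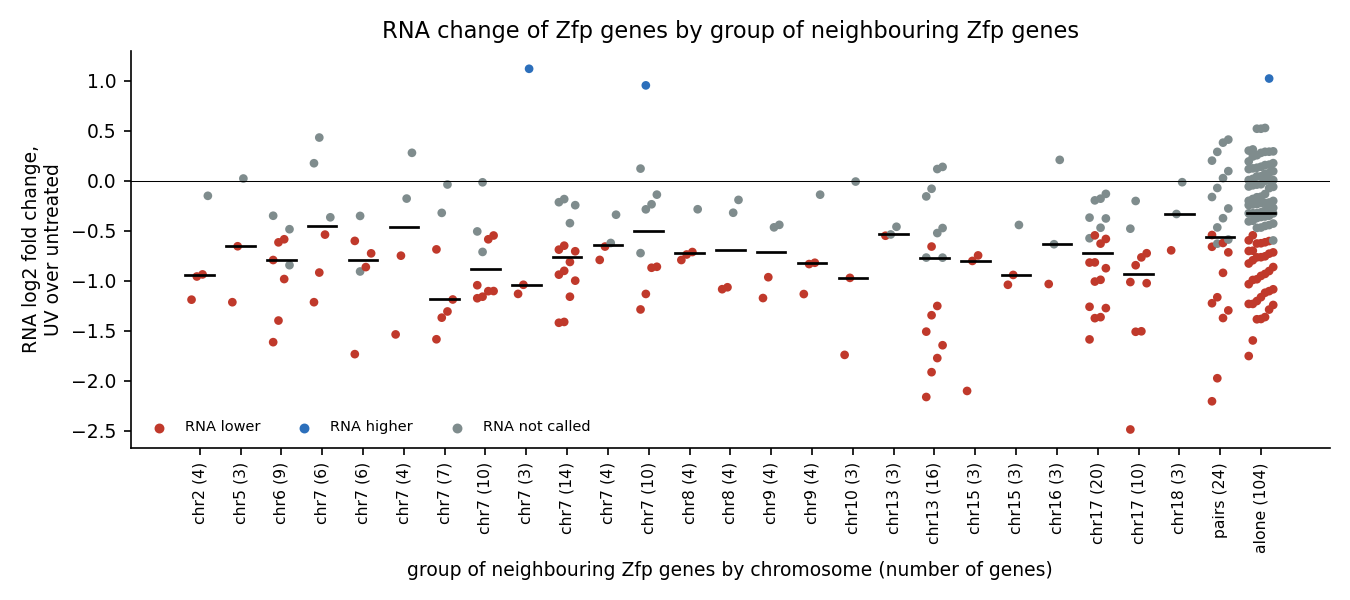
RNA log2 fold change (UV over untreated, y axis) of each Zfp gene, by group of neighbouring Zfp genes along the x axis (chromosome and number of genes), with pairs and genes alone at the right. Points are genes coloured by call and bars are medians, which are below 0 in all 25 groups and at −0.32 for genes alone.

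At the promoters of the same members, FAIRE enrichment was mostly lower after UV, as it was at other expressed genes, and H3K27ac was on both sides of 0. The deposited tables give the reads of both samples of a condition together, in a window of 1000 bp, and a log2 enrichment over input, so a difference (UV minus untreated) has no replicate error and no test. The FAIRE pools held 637080 promoter reads after UV and 1032412 untreated, and the H3K27ac pools 4447997 and 4015279. Read counts of single promoters given below are not scaled for this. The part of read depth in the FAIRE differences was not tested. In FAIRE the median difference of the 288 members was −0.38, against −0.36 for promoters of tested genes at the same floor and −0.17 for all promoters. A difference of at least 1 in size was present in 1 member with UV lower (0.347%, against 1.05% of all promoters and 1.81% at the same floor) and in none with UV higher (against 0.00457% and 0.00893%). At a threshold of 0.58, 62 members were lower (21.5%, against 14.2% of all promoters and 23.9% at the same floor) and none was higher (against 0.708% and 0.33%). Members lower in RNA and members not called had FAIRE medians of −0.40 and −0.35. The share of members past either threshold was below that of genes at the same floor.

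Named FAIRE promoters are those of members in the upper 50% by mean enrichment. The member past 1 in FAIRE was Zfp524, with 55 reads after UV and 157 untreated and an enrichment of 1.31 after UV and 2.45 untreated. Its RNA was lower as well (log2 fold change −1.21, edgeR adjusted p = 0.00535), a call lost without UV replicate 3 (0.0582) or untreated replicate 2 (0.0549). Zfp760 (65 against 157 reads), Zfp661 (33 against 86) and Zfp281 (53 against 127) followed within that part, with −0.93, −0.91 and −0.87. At its upper end Zfp777 had 35 reads after UV and 26 untreated, a difference of 0.37, and Zfp326, Zfp664 and Zfp365 had 0.22, 0.10 and 0.08. These counts are small. The ratio of reads in Zfp777, scaled by the summed promoter reads of each pool, was 1.13 on the log2 scale. This ratio is thus relative to promoters as a whole, unlike the enrichment difference of 0.37. Its 95% interval was 0.35 to 1.92, which covers counting error only.

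In H3K27ac the median difference of members was −0.09, against −0.01 at the same floor and −0.01 for all promoters. It was at most −1 in 10 members (3.47%, against 3.43% of all promoters and 4.96% at the same floor) and at least 1 in 9 (3.13%, against 2.38% and 3.55%). At a threshold of 0.58, 51 members were lower (17.7%, against 12.1% of all promoters and 16.1% at the same floor) and 27 higher (9.38%, against 8.72% and 13.7%). Of the 146 members lower in RNA, 33 were lower and 11 higher in H3K27ac at that threshold, and of the 139 not called 17 and 15. Across the 288 members the RNA and H3K27ac differences had a Pearson r of 0.26 (Spearman rho 0.25), and over the 11197 genes at the same floor 0.09 (0.06). RNA and FAIRE had 0.11 (0.12) over members. These are descriptions across genes, which share libraries and pools and are not independent replicates.

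The members with the widest H3K27ac differences, among those in the upper 50% by enrichment, are shown by their promoters in the same form as above.
Zfp788, chr7:41633381-41633530, plus strand: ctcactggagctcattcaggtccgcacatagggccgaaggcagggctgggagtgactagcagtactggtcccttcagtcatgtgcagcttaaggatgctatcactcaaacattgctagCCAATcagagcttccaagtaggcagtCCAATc
Zfp503, chr14:21989602-21989751, minus strand: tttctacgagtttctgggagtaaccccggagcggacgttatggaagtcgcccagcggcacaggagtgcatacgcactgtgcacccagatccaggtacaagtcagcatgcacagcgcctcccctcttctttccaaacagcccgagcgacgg
Zfp365, chr10:67912663-67912812, minus strand: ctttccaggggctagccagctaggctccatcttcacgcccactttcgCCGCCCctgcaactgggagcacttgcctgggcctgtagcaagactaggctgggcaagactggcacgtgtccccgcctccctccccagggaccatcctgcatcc

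Zfp788 has 2 CCAAT matches, Zfp365 has 1 GC box and Zfp503 has none of the letters searched in this window. Zfp788 had 167 H3K27ac reads after UV and 647 untreated, with enrichments of 2.14 after UV and 4.001 untreated, the lowest difference of all members (−1.86). Its RNA was level, at means of 30.4 ± 1.78 CPM after UV and 30.3 ± 2.17 CPM untreated (SD, n = 3 libraries each). Zfp503 had 141 reads after UV and 541 untreated (−1.83), and its RNA was lower, as given above. Zfp637 had 193 reads after UV and 464 untreated (−1.21), and Zfp362 had 179 and 390 (−1.06), with RNA lower in both (log2 fold changes −2.20 and −1.20). Among the 4 lowest promoters, Zfp788 alone had no RNA call.

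At the upper end of the same 50%, Zfp365, which acts in genome stability and neurons, had 733 reads after UV and 248 untreated, a difference of 1.497. Zfp213 had 1847 and 702 (1.37), Zfp69, a KRAB gene tied to diabetes in mice, 870 and 326 (1.37), and Zfp948 1197 and 478 (1.29). None of these 4 was called in RNA, with log2 fold changes of 0.16, −0.38, −0.22 and −0.58. Of all 9 members at 1 or more in H3K27ac, 2 were lower, 1 was higher and 6 were not called in RNA. Of the members higher in RNA, Zfp688 had an H3K27ac difference of 1.05, Zfp593 of 0.54 and Zfp607 of −0.69. Zfp472, the lowest in RNA, had −0.23 in H3K27ac and −0.01 in FAIRE.

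**Figure D4:**
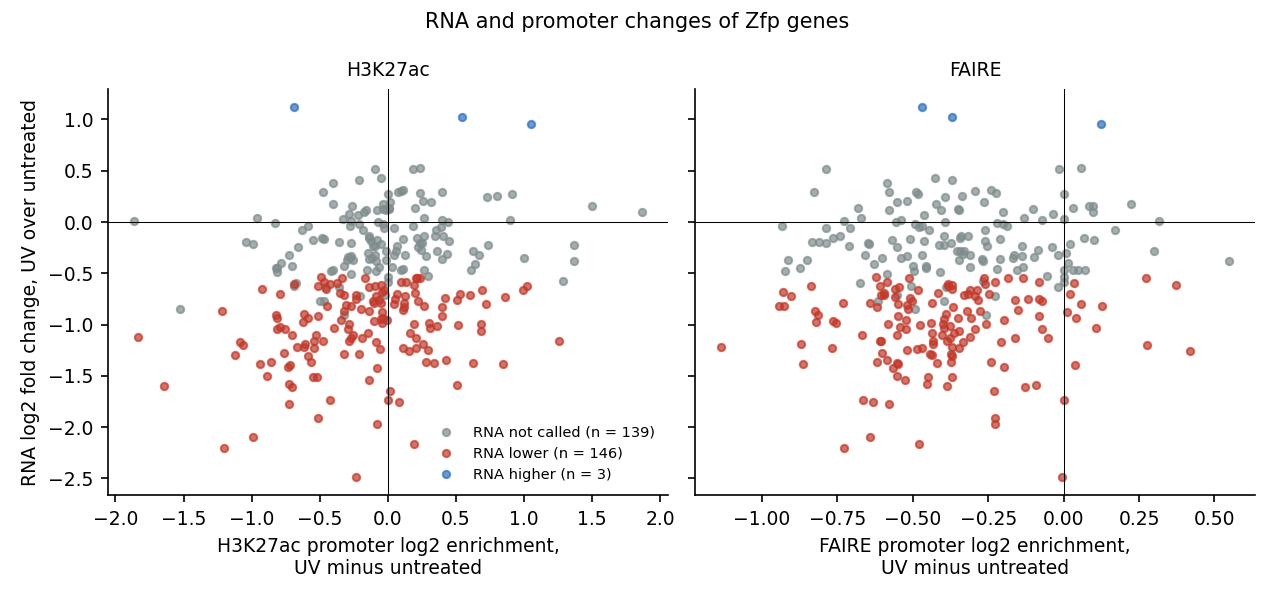
RNA log2 fold change (y axis) against the promoter difference in log2 enrichment (UV minus untreated, x axis) of the 288 Zfp genes, for H3K27ac at left and FAIRE at right, with points coloured by RNA call. Members lower in RNA spread over both sides of 0 in H3K27ac (33 at −0.58 or less and 11 at 0.58 or more), while FAIRE differences lie mostly below 0 in all members.

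The corepressor genes that KRAB zinc fingers work with were called about as often as all genes tested. Of 26 such genes 4 were lower (15.4%) and 2 were higher (7.69%), against 12.4% and 7.7% of all genes tested. Their share at the same floor was 16.6% and 10%. The median log2 fold change of the list was 0.05, or −0.03 without UV replicate 1. With library totals it was −0.18, and 9 were lower and 2 higher, against 25.1% of all genes lower. Trim28, the corepressor itself, had 704, 508 and 563 CPM after UV, against 493, 501 and 466 CPM untreated, and was not called (log2 fold change 0.28, edgeR adjusted p = 0.437). Setdb1 was not called either (−0.27). The histone H3.3 chaperone Daxx had 16.5, 12.1 and 13.4 CPM after UV, against 26.0, 32.8 and 27.9 CPM untreated (log2 fold change −1.04, edgeR adjusted p = 0.000481). The remodeller Smarcad1 fell by 1.02 on the log2 scale, Morc3 by 0.72 and the Setdb1 partner Atf7ip by 0.63, and the deacetylase complex genes Chd3 and Hdac1 were higher by 0.71 and 0.67. Without UV replicate 3, 2 of the list were lower and 0 higher, against 7.31% of all genes lower. There the calls of Morc3, Atf7ip, Chd3 and Hdac1 were lost (edgeR adjusted p = 0.108, 0.113, 0.194 and 0.132). Without UV replicate 2 that of Atf7ip was lost too (0.0687), and without untreated replicate 2, 4 were higher.

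In the authors' deposited table of RNA changes, 107 of the 288 members are listed, 104 as lower (36.1%) and 3 as higher after UV. The authors' adjusted p was below 0.05 for 83 of the lower and all 3 higher ones, so the list is wider than that threshold. All 104 were also called lower here, from RNA of the same study, so this is no independent evidence. Over all genes the authors' deposited table lists 1236 as lower (6.48% of 19069) and 832 as higher, with 1013 and 620 at an adjusted p below 0.05. Only 11197 of the 19069 genes reached the members' floor, so this share is not matched to the members by RNA level.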

How the data were processed

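The RNA values are read counts per gene and library that the authors deposited unscaled. The promoter tables hold, per the file headers, pooled read counts and log2 enrichment that the authors deposited, and adding 16 to the reads and to the scaled input reads gave the same enrichment back. The p-value columns are those of the authors' deposited RNA comparison. Bowtie 0.12.9, TopHat, MACS2, DESeq2 and mm9 are named in the submitters' processing notes, without their settings. Columns with DMSO in the header were taken as UV, since the labels' protocol gives DMSO to irradiated cells, and 8 columns of values were not used.

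The count model was edgeR 4.0.16 under R 4.3.3 (filterByExpr, TMM, glmQLFit, quasi-likelihood F test, Benjamini-Hochberg over 14925 genes, threshold 0.05), a procedure tested on simulated data. Errors of log2 fold changes are SE. DESeq2 1.42.0, other scalings and filters, other floors, the replicate number as a block and each library left out were the alternatives. Tables were handled in Python 3.11.15 with pandas 2.3.3. The main fit did not pair the libraries by replicate number.

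The members, lists and tests were chosen with earlier results of these data known. Genes were named by rule: the 10 lowest and 10 highest called members with a mean of at least 5 CPM and no overlap (3 were higher), the 6 most abundant, both role lists, 3 on each side of the floor, and per assay the 4 lowest and 4 highest promoters in the upper 50% by enrichment, and up to 3 called genes per related list. Other genes named were picked after their values were seen. Positions for neighbours came from RefSeq (GRCm38), since the promoter tables hold none. Protein features were not analysed here. Intervals are 95% and cover counting error only.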

Additional observations from a re-analysis of the deposited data

How the results depend on the processing

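All medians of the members stayed below 0, and the distance of the member median from that of genes at the same floor was −0.63 to −0.55 over the 12 RNA alternatives. The member median was −0.85 with library totals alone and −0.67 to −0.43 with a library left out. Members called lower ranged from 91 to 166 and members called higher from 3 to 6 with a library left out, and a filter of 1 CPM in 3 libraries gave 6 higher. Over all genes tested, 7.31% to 18.3% were lower with a library left out. Deviations from the group mean had correlations of 0.15, −0.58 and 0.50 for the same replicate number. With 3 libraries per group, these values cannot decide whether the libraries were paired. With the replicate block 149 members were lower and 4 higher, at a median of −0.61. Floors of 1 CPM, 5 CPM and 2 CPM over all libraries gave 146 of 302, 137 of 263 and 143 of 281 lower. In FAIRE, 62 members were lower at 0.58, and with centring on all promoters 0 were past 1 and the median was −0.21; in the upper 50% it was −0.43. In H3K27ac, 51 were lower and 27 higher at 0.58, and in the upper 50% the median was −0.023. Each symbol has 1 promoter row, so a mean over several rows gave no value.

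Members not called near 0 changed sign. With library totals the log2 fold change was −0.21 for Zfp488, −0.18 for Zfp318, −0.065 for Zfp326, −0.12 for Zfp598, −0.11 for Zfp219, −0.052 for Zfp335 and −0.22 for Zfp462. Zfp488 also had −0.0066 with no low-count filter and −0.023 with the replicate block, and −0.28 to 0.54 with a library left out. Zfp277 had 0.0014 with DESeq2 size factors, 0.0048 with DESeq2 and −0.39 to 0.41 with a library left out. Zfp830 had 0.010 with DESeq2 size factors, 0.027 with DESeq2, 0.00071 with no filter and −0.12 to 0.15 with a library left out. With a library left out, Zfp318 ranged from −0.090 to 0.21, Zfp346 from −0.15 to 0.11, Zfp598 from −0.11 to 0.32, Zfp462 from −0.23 to 0.27, Zfp516 from −0.17 to 0.060, Zfp687 from −0.25 to 0.12 and Zfp809 from −0.27 to 0.00046. The cause was not tested. UV, re-feeding and DMSO cannot be told apart, pooled promoter reads give no replicate error, and members near 2 CPM rest on few counts.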

Other observations

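Other lists of zinc finger genes in the same libraries gave fewer higher than lower calls, as did all genes tested (12.4% lower and 7.7% higher). Of 36 tested Zbtb genes, which join a BTB domain to zinc fingers, 15 were lower and 0 higher by edgeR (1 higher at an unadjusted p below 0.05, and 9 lower and 1 higher by DESeq2), with a median log2 fold change of −0.44. Zbtb43 averaged 10.3 ± 2.60 CPM after UV and 28.1 ± 2.39 CPM untreated (SD, n = 3 libraries each), and Zbtb5 and Zbtb45 fell by 1.27 and 1.79 on the log2 scale. Without UV replicate 3 or untreated replicate 2, 5 or 6 Zbtb genes were lower, and with library totals 25. Of all genes tested 7.31%, 7.49% and 25.1% were lower in these fits, and 10.5% without untreated replicate 3. Of 18 Zscan and Zkscan genes, 5 were lower and 1 higher (median −0.46), led by Zscan12 at 4.22 ± 0.84 CPM after UV and 16.1 ± 1.82 CPM untreated (SD, n = 3 libraries each), with Zkscan17 and Zscan20 at −0.90 and −0.88. Without UV replicate 3, untreated replicate 2 or untreated replicate 3, 3 of them were lower, with library totals 8, and the 1 higher call, Zkscan5, was lost without UV replicate 1 or 3 (edgeR adjusted p = 0.0565 or 0.0831) and with library totals (0.0511).

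Of 21 tested Klf and Sp genes, which share a domain of zinc fingers that binds GC-rich sites, 4 were lower and 3 higher, with a median of −0.25. Klf3, a repressor, fell by 1.47 and Klf13 by 1.17 on the log2 scale, while Sp6 was higher by 2.06. Without UV replicate 1 or with library totals, 7 were lower and 3 higher, against 18.3% or 25.1% of all genes lower. Lower and higher calls were equal without UV replicate 3 (3 and 3) and without untreated replicate 1 (4 and 4). In these fits 7.31% and 9.68% of all genes were lower. Of 23 Zfp genes with a letter after the number, 6 were lower and 0 higher by edgeR and by DESeq2 (1 higher at an unadjusted p below 0.05 in edgeR), with a median of −0.29. Among them were the neighbours in name Zfp955a and Zfp955b at −1.28 and −1.32, whose reads may be shared. The list also holds Zfp36l1 and Zfp36l2, although Zfp36 was left out of the members, and neither was called by edgeR. With library totals 11 of the 23 were lower, against 25.1% of all genes. Of all genes tested 12.4% were lower and 7.7% higher. The differences between these lists were not tested.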
